A study of Mus musculus with 12 samples.

Results

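Chromatin accessibility was examined at 5 genes of megakaryocytes and platelets, Gp9, Pf4, Itga2b, Vwf and Gp1bb. The cells came from diabetic and control mice and are labelled as bone marrow derived macrophages. Every peak that the deposited annotation assigns to one of these gene symbols was taken, which gave 46 of the 139999 peaks of the series. Vwf held 31 of them, Gp9 8, Itga2b 5, and Pf4 and Gp1bb 1 each. All 46 are 400 bases wide, so their levels can be compared with each other without a length term.

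Megakaryocytes are the large marrow cells that shed platelets, and none of the 5 genes is a standard macrophage marker, although Pf4 is also found in some macrophages. Gp9 and Gp1bb encode subunits of the platelet glycoprotein Ib-IX-V complex, the receptor that catches von Willebrand factor, the large adhesive multimer that Vwf encodes and that endothelial cells also make. Itga2b encodes the alpha chain (CD41) of the platelet fibrinogen receptor, and Pf4 encodes platelet factor 4, a chemokine stored in alpha granules. Megakaryocyte genes are known to be bound by factors of the GATA, ETS and RUNX families and by NF-E2, whereas the ETS factor PU.1 drives macrophage genes.

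The series holds 12 ATAC-seq libraries from male C57BL/6J mice that were 8 weeks old. ATAC-seq maps open chromatin by where the Tn5 transposase can insert into the DNA. In the diabetic groups, type 1 diabetes was induced with streptozotocin at 42 to 45 mg/kg on 5 days, and animals whose blood glucose passed 16.9 mmol/L stayed hyperglycaemic for 6 weeks. In the first phase the groups are Diabetic and Healthy, in the rest and second phases Diabetic-trained and Untrained, with 2 libraries each. Rest-phase cells had 7 days of M-CSF in medium with 5 mmol/L glucose, and second-phase cells had a further 16 hours of IFN-γ (10 ng/mL) with LPS (100 ng/mL), in both the diabetic-trained and the untrained group. The labels give no time of collection for the first phase, and do not say whether both libraries of a group stem from different animals. The p-values therefore measure spread from library to library, which may be technical. The deposited tables do not tie their mean columns to diabetic or control cells. Their groups are therefore called A and B, letters that carry no meaning from one phase to the next.

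Reads per library were solved from the deposited group means, and libraries are written A1, A2, B1 and B2 within a phase. Reads in peaks ran from 3832347 (second-phase B1) to 18617444 (rest-phase A1), and the median peak held 9 to 56 reads. First-phase libraries A1 and A2 had 1.13 times the variance that sampling alone would give, against 2.07 to 15.7 times in the other 5 pairs. This was taken over peaks with at least 20 reads in the pair. Libraries A1 and A2 of the first phase were therefore counted as 1 library where phases are compared. A level is the log2 of quantile-scaled reads plus 1 in a single library, scaled over all 12. The tests between phases used limma on such values scaled over the libraries compared, with Benjamini-Hochberg adjustment over 139557 peaks and a threshold of 0.05, and all 46 peaks entered them. A peak is named by its gene and the distance in kb of its centre from the start RefSeq gives that gene. Start peaks of the macrophage markers had levels with medians of 5.99 to 6.77 in the first-phase libraries and 7.13 to 7.65 in the rest phase. In the first phase the neutrophil, erythroid and B cell markers had medians of 7.22 to 8.09, 6.43 to 7.87 and 5.92 to 7.81. The name macrophage is that of the labels in all phases, and the share of macrophages among the first-phase cells was not tested.

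The 250 bases before the start of Gp9, Pf4 and Itga2b are shown because a peak overlaps each of them, by 233, 213 and 154 bases in that order. They are RefSeq sequence of the GRCm38.p6 build, written 5′ to 3′ on the strand of the gene, and capitals mark the motif letters found.
Gp9 (chr6:87777820-87778069, plus strand): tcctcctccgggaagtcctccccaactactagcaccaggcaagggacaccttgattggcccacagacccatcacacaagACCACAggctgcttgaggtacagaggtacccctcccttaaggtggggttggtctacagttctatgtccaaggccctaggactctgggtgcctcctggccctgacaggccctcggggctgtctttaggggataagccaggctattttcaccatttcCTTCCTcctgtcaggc
Pf4 (chr5:90772185-90772434, plus strand): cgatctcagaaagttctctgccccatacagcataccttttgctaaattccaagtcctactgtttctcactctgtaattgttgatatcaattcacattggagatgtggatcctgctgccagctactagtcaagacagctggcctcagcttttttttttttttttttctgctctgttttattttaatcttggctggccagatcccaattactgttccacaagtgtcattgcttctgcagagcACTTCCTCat
Itga2b (chr11:102469884-102470133, minus strand): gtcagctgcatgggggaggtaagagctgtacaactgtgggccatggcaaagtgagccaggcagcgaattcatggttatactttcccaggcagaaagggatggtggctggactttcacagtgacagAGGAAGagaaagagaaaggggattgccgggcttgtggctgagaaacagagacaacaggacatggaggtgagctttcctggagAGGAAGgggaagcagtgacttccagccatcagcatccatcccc
The letters searched on both strands were NGATAN with A or T first and A or G last for GATA factors, NGGAAG with A or C first for ETS factors, TGNGGT with T or C in the middle for RUNX factors, TGACTCA for NF-E2 and AP-1, and GAGGAAGT for PU.1. The Gp9 sequence held an ETS match from base -16 to -11 before the start and a RUNX match from -171 to -166. The Pf4 sequence held a PU.1 match from -10 to -3, and its only ETS match, from -9 to -4, lies inside it. Itga2b held ETS matches at -125 to -120 and at -43 to -38. The corresponding sequence of Gp1bb, over which no peak lies, held an ETS match at -90 to -85 and a GATA match at -22 to -17. Vwf was not matched, so 4 of the 5 genes had a sequence. Of 32851 RefSeq promoters of this length, 39.2% held the ETS letters, 26.5% GATA, 18.6% RUNX, 4.46% NF-E2 and AP-1, and 2.44% PU.1. A match is a description of the letters only.

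From the first to the rest phase the 5 genes did not move together. Gp9 lost accessibility at 6 of its 8 peaks, Itga2b at 2 of 5, Vwf gained it at 13 of 31 and lost it at 6, and the single peaks of Pf4 and Gp1bb did not pass the test. This made 13 peaks higher, 14 lower and 19 not passing, where limma called 38.6% of all peaks, 19.7% higher and 18.9% lower. The median log2 fold over the 46 was -0.06, against 0.02 over all peaks. By gene it was -1.72 for Gp9, -0.46 for Itga2b and 0.41 for Vwf. The libraries of the phases did not overlap at 11 peaks that were higher and 11 that were lower in the rest phase, against 18.8% and 18.9% of all peaks. Fewer cells of a type and less accessible chromatin per cell cannot be told apart in these bulk libraries.

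The share of calls in each direction depends on the scaling. The median fold of all peaks was 0.30 with scaling to total reads in peaks and 0.74 with the authors' scaling, and the share of called peaks that were higher in the rest phase was 51.1% with quantile scaling, 66.4% with total reads and 82.5% with the authors' scaling. The members split into 16 higher and 9 lower, and 14 higher and 5 lower, under these alternatives. In the same order Gp9 had 1 and 0 higher peaks and Vwf 14 and 13. Lower peaks were 5 and 4 at Gp9, 1 and 0 at Itga2b, and 3 and 1 at Vwf. The authors' scaling weighs each read by a factor set within its phase, not over the phases together. Those factors were 1.81, 1.84, 0.86 and 0.94 in first-phase A1, A2, B1 and B2, and 0.79 to 0.95 in the rest phase. Calls between phases that are lost or gained under the authors' scaling are to be read with this limit.

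**Figure D1:**
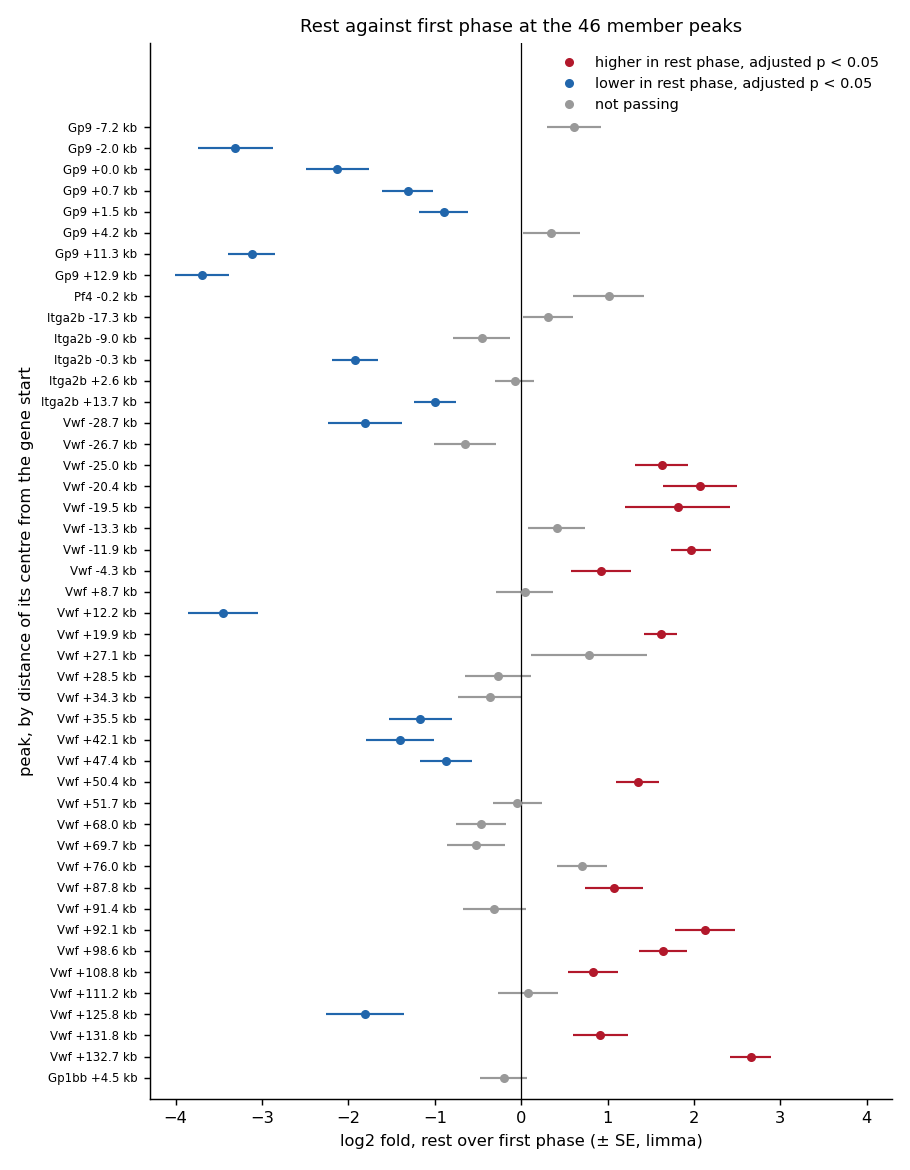
Log2 fold of the rest over the first phase (± SE, limma, n = 4 against 3) at each of the 46 peaks, ordered by gene and by distance of the peak centre from the gene start in kb. Red and blue points passed the test as higher and lower, and Vwf holds all 13 red points.

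Gp9 was lower at its start and around it. The peak over the start (Gp9 +0.0, chr6:87777837-87778236, annotated as promoter) had levels of 5.87, 6.07, 6.02 and 5.17 in first-phase libraries A1, A2, B1 and B2, and of 3.43, 2.93, 3.82 and 4.18 in the rest phase. Every rest-phase library lay below every first-phase library, with a log2 fold of -2.13 (SE 0.36, limma adjusted p = 0.000377, n = 4 against 3). A second peak lies 2.0 kb upstream (chr6:87775879-87776278), over the first base of the longest span RefSeq gives Gp9. Its levels were 6.52, 6.49, 7.40 and 5.62 in the first phase and 2.70, 2.82, 3.66 and 3.77 in the rest phase, and again the phases did not overlap. Its fold was -3.31 (SE 0.43, limma adjusted p = 4.95e-05), and in reads it went from 27 to 137 per library to 6 to 11.

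The 2 peaks inside the gene that follow its start were lower as well, by less. Gp9 +0.7 had 5.70, 5.94, 6.08 and 5.49 in the first phase and 4.38, 4.57, 4.90 and 4.11 in the rest phase (log2 fold -1.31, SE 0.30, limma adjusted p = 0.00299). Gp9 +1.5, described after its values were seen, went from a mean level of 5.36 ± 0.23 (SD, n = 4) to 4.43 ± 0.20 (fold -0.90, limma adjusted p = 0.0203). The call at +1.5 was lost with total reads in peaks (-0.56, adjusted p = 0.185), with the authors' scaling (-0.10, adjusted p = 0.917) and without rest-phase A1 or A2 (adjusted p = 0.0589 and 0.0679). That at +0.7 was lost under the authors' scaling (-0.46, adjusted p = 0.61), while those at +0.0 and -2.0 held under both other scalings.

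Large losses also stood at peaks that lie in the neighbour Rab43, a gene for a small GTPase. Gp9 +11.3 (chr6:87789161-87789560) and Gp9 +12.9 (chr6:87790769-87791168) carry the gene symbol Gp9 by nearness but lie within the RefSeq body of Rab43, and the deposited annotation places them in a 3′ untranslated region. Gp9 +11.3 fell from 6.69, 6.98, 7.08 and 7.09 to 4.03, 4.11, 3.97 and 3.52, a fold of -3.12 (SE 0.27, limma adjusted p = 2.4e-06). Gp9 +12.9 fell from 7.04, 6.98, 7.48 and 6.49 to 3.35, 3.09, 3.66 and 3.15, a fold of -3.70 (SE 0.32, limma adjusted p = 2.1e-06). In both peaks the phases were separated by more than 2 log2 units, and which gene they belong to is not given by these data. The remaining peaks did not pass: Gp9 -7.2, in the body of Gm5879, had a fold of 0.61 (SE 0.31, limma adjusted p = 0.141) and Gp9 +4.2 of 0.35 (adjusted p = 0.426). With total reads in peaks Gp9 -7.2 passed as higher (0.92, adjusted p = 0.026).

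**Figure D2:**
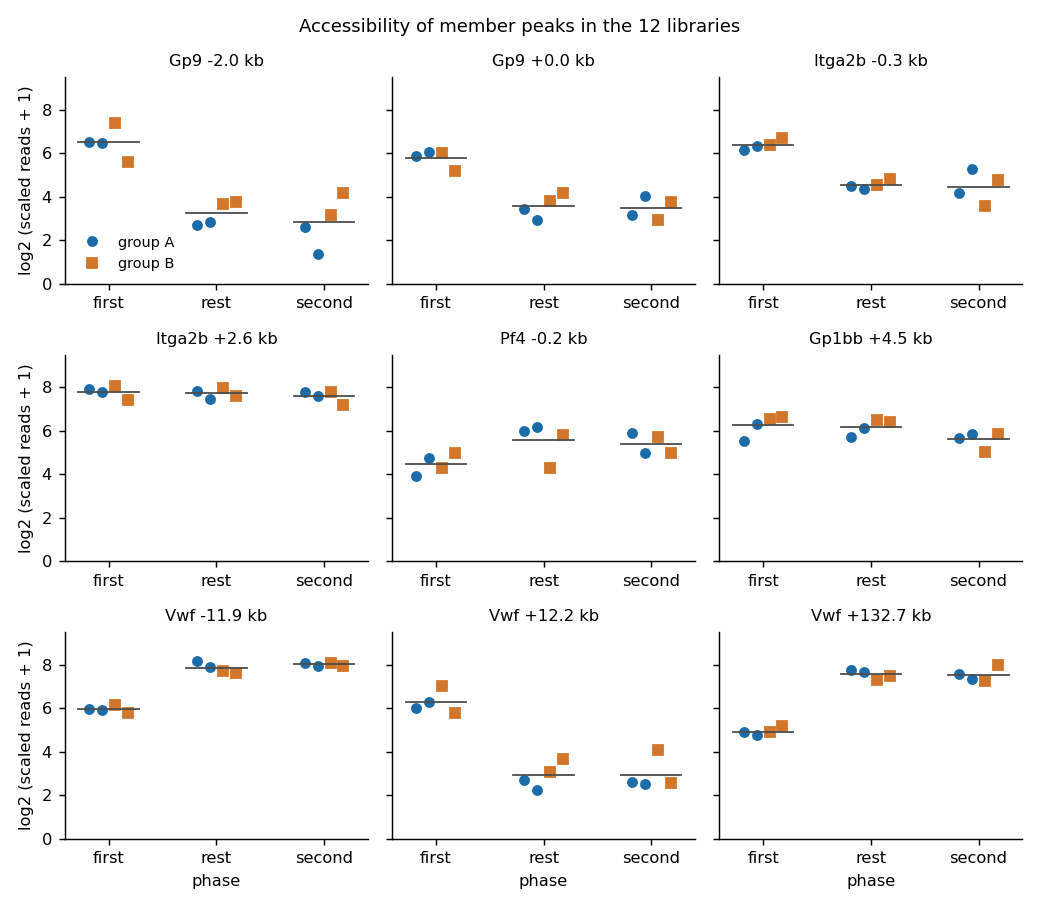
Level, log2 (quantile-scaled reads + 1), of 9 peaks in the 12 libraries, by phase. Circles are libraries of group A, squares of group B, and bars mark the mean of the 4 libraries of a phase. The peaks at Gp9, Itga2b -0.3 and Vwf +12.2 drop from the first to the rest phase, Vwf -11.9 and +132.7 rise, and Itga2b +2.6 and Gp1bb +4.5 stay within their spread.

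Itga2b was lower at its start and deep in the gene, while its most accessible peak did not pass the test. The peak just upstream of the start (Itga2b -0.3, chr11:102469980-102470379, promoter) had levels of 6.16, 6.35, 6.37 and 6.72 in the first phase and 4.47, 4.36, 4.55 and 4.80 in the rest phase. The 4 values of either phase were close to each other and the phases did not overlap, with a fold of -1.92 (SE 0.27, limma adjusted p = 8.1e-05). With total reads in peaks the fold was -1.46 and passed (adjusted p = 0.00125), and with the authors' scaling it was -1.0 and did not (adjusted p = 0.265).

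The peak Itga2b +2.6 (chr11:102467059-102467458), over the start of a shorter transcript in the deposited annotation, was the most accessible of the gene. It had 7.92, 7.77, 8.08 and 7.42 in the first phase and 7.82, 7.46, 7.98 and 7.60 in the rest phase. These values overlapped, and the fold was -0.07 (SE 0.23, limma adjusted p = 0.83), turning to 0.029 and 0.50 under the other scalings. The standard error sets the size of change this comparison could show, so a small difference remains possible.

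Itga2b +13.7 (chr11:102456007-102456406), at another internal transcript start, went from 7.09, 7.24, 7.15 and 6.69 to 5.85, 5.97, 6.25 and 6.11. The phases did not overlap, and the fold was -0.99 (SE 0.24, limma adjusted p = 0.00506). It missed the threshold with total reads in peaks (-0.51, adjusted p = 0.111) and with the authors' scaling (-0.04, adjusted p = 0.974). The 2 upstream peaks, at -9.0 and -17.3 kb, lie within the RefSeq body of the neighbour Gpatch8 and did not pass (-0.46 and 0.31, limma adjusted p = 0.293 and 0.418).

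Of the 3 genes with a peak at their RefSeq start, Pf4 alone had a higher mean there in the rest phase, without passing the test. The peak Pf4 -0.2 (chr5:90771998-90772397, promoter) had levels of 3.93, 4.76, 4.28 and 4.97 in the first phase and 5.97, 6.19, 4.28 and 5.81 in the rest phase. Rest-phase library B1, with 14 reads in the peak, sat among the first-phase libraries while the other 3 lay above all of them. The fold was 1.01 (SE 0.41, limma adjusted p = 0.0677), and 1.51 without that library (adjusted p = 0.00194). It also passed with total reads in peaks (1.53, adjusted p = 0.00955), with the authors' scaling (1.99, adjusted p = 0.0154), with a group term (1.05, adjusted p = 0.0419), with the first-phase pair as 2 libraries (1.07, adjusted p = 0.0358) and without first-phase A2 (1.16, adjusted p = 0.0467). Counts behind this peak were low in the first phase, with 5, 9, 14 and 19 reads.

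Gp1bb is represented by a peak beyond its 3′ end (Gp1bb +4.5, chr16:18617670-18618069, intergenic), and no peak lies over its start. Levels were 5.52, 6.30, 6.52 and 6.65 in the first phase and 5.73, 6.14, 6.48 and 6.41 in the rest phase. The phases overlapped, with a fold of -0.20 (SE 0.28, limma adjusted p = 0.598) that became 0.36 and 0.83 with total reads in peaks and the authors' scaling.

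Vwf spans the largest region of the 5, and its peaks went both ways. No peak lies within 1 kb of its RefSeq start at position 125552948 of chromosome 6. The nearest, Vwf -4.3, which the deposited annotation places 1633 bases into a longer transcript, had a fold of 0.92 (SE 0.34, limma adjusted p = 0.0469). This call was lost without any one of first-phase A2, B1 and B2 and rest-phase A1, A2 and B2 (adjusted p between 0.0532 and 0.144). Of the 8 peaks upstream of the start 5 were higher and 1 lower, with a median fold of 1.27, and of the 23 peaks in the gene body 8 were higher and 5 lower, with a median of 0.04.

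Among the upstream peaks, Vwf -11.9 (chr6:125540818-125541217, intergenic) had the smallest p. Its levels were 5.96, 5.94, 6.17 and 5.80 in the first phase and 8.19, 7.89, 7.73 and 7.64 in the rest phase. The lowest rest-phase library lay more than 1 log2 unit above the highest first-phase library, and the fold was 1.97 (SE 0.23, limma adjusted p = 1.87e-05). A pair of peaks further upstream, chosen after their values were seen, had folds of 2.07 (Vwf -20.4, SE 0.43, limma adjusted p = 0.00173) and 1.81 (Vwf -19.5, SE 0.61, adjusted p = 0.0302). The large standard error of Vwf -19.5 goes with its rest-phase levels, 5.15 and 4.78 for libraries A1 and A2 but 7.53 and 7.30 for B1 and B2. Its call was lost without any one of first-phase B1 and B2 and rest-phase B1 and B2 (adjusted p = 0.0623, 0.141, 0.0709 and 0.0939). Vwf -28.7, the farthest, was lower (-1.81, SE 0.43, adjusted p = 0.0041), but did not pass with the authors' scaling (-1.15, adjusted p = 0.0893).

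The largest gain of the 46 peaks was at the far end of Vwf. The peak Vwf +132.7 (chr6:125685426-125685825) covers the start of a short transcript in the deposited annotation, near the 3′ end of the gene. Its first-phase reads were 10, 9, 21 and 21 and its rest-phase reads 465, 381, 88 and 183, or levels of 4.89, 4.76, 4.90 and 5.17 against 7.77, 7.68, 7.32 and 7.48. The phases were far apart, with a fold of 2.66 (SE 0.24, limma adjusted p = 2.83e-06). The peak just before it, Vwf +131.8, had a smaller fold of 0.92 (SE 0.32, adjusted p = 0.0344), and its call was lost without any one of first-phase A2 and B1 and rest-phase A1, A2 and B2 (adjusted p between 0.0532 and 0.153).

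The largest loss at Vwf lay within the gene, 12.2 kb past its start. Vwf +12.2 (chr6:125564954-125565353), which the deposited annotation places upstream of the start of an internal transcript, had levels of 6.03, 6.30, 7.02 and 5.80 in the first phase and 2.70, 2.23, 3.05 and 3.66 in the rest phase. In reads this was 21, 26, 97 and 30 against 6, 3, 7 and 10, and the phases did not overlap. The rest-phase libraries of group A nevertheless held more reads in peaks than any first-phase library. The fold was -3.45 (SE 0.40, limma adjusted p = 2e-05).

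The intron peak Vwf +19.9 (chr6:125572613-125573012), the next one described along the gene, had the highest rest-phase mean of the 46 and moved the other way. It had 7.34, 7.27, 7.05 and 7.41 in the first phase and 8.82, 8.55, 8.74 and 8.99 in the rest phase, without overlap (fold 1.62, SE 0.19, limma adjusted p = 2.31e-05). Vwf +50.4, at an internal transcript start, rose from 5.17, 5.86, 5.64 and 6.32 to 7.12, 7.10, 7.10 and 7.33 (1.35, SE 0.25, limma adjusted p = 0.000735). Vwf +92.1 rose from 3.93, 3.03, 4.18 and 2.88 to 5.98, 5.60, 5.59 and 5.29 (2.13, SE 0.34, limma adjusted p = 0.000255). At each of these 3 peaks every rest-phase library was above every first-phase library, and all 3 passed under both other scalings.

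The other gene-body peaks that were called are given after their values were seen. Vwf +87.8, +98.6 and +108.8 were higher, with folds of 1.08, 1.64 and 0.83 (limma adjusted p = 0.0205, 0.000369 and 0.0363). The call at +87.8 was lost without first-phase B2 (adjusted p = 0.0743). That at +108.8 was lost with the first-phase pair as 2 libraries (adjusted p = 0.0507) and without any one of first-phase A1, B1 and B2 and rest-phase A2, B1 and B2 (adjusted p between 0.0568 and 0.148). Vwf +35.5, +42.1 and +47.4 were lower, with folds of -1.17, -1.40 and -0.87 (limma adjusted p = 0.0207, 0.012 and 0.0324), as was Vwf +125.8 (-1.81, adjusted p = 0.00564). None of these 4 losses passed with the authors' scaling, where Vwf +125.8 had a fold of -1.19 (adjusted p = 0.0807) and Vwf +47.4 one of 0.044 (adjusted p = 0.97), and only Vwf +125.8 passed with total reads in peaks. The calls at +35.5 (without first-phase B2 or rest-phase B2), +42.1 (without first-phase B2) and +47.4 (without first-phase B1 or B2 or rest-phase A1 or A2) were also lost, at adjusted p between 0.0599 and 0.103. In either direction 12 of the 31 peaks did not pass, of which Vwf +76.0 passed as higher with total reads in peaks (1.13, adjusted p = 0.0126), with a group term, with the first-phase pair as 2 libraries and without first-phase A2 or B2. Vwf -26.7 passed as lower without first-phase B1 (-1.08, adjusted p = 0.0293).

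**Figure D3:**
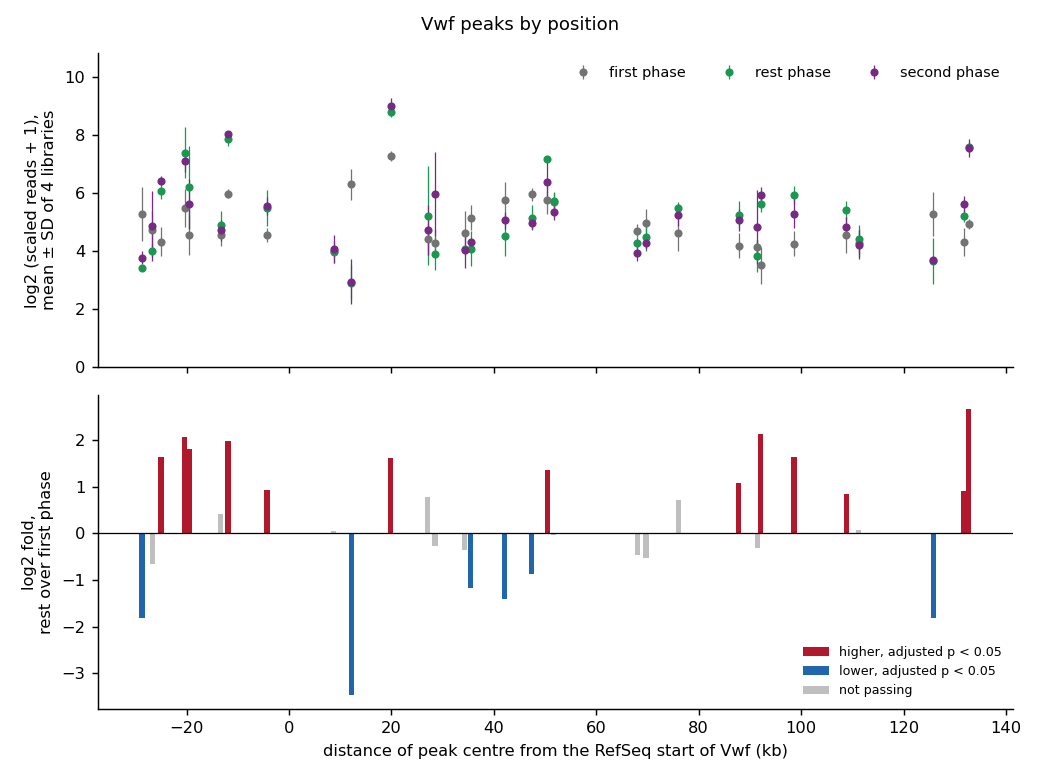
Vwf peaks by the distance of their centre from the RefSeq start (kb). The upper panel gives the mean level ± SD of the 4 libraries of each phase, and the lower panel the log2 fold of the rest over the first phase, coloured by call. Vwf +19.9 has the highest levels, and the fold is lowest at +12.2 (-3.45) and highest at +132.7 (2.66).

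Ordered by mean level in the rest phase, Vwf +19.9 stood highest (8.77 ± 0.18, SD, n = 4), followed by Vwf -11.9 (7.86 ± 0.24), Itga2b +2.6 (7.72 ± 0.23), Vwf +132.7 (7.56 ± 0.20) and Vwf -20.4 (7.38 ± 0.87). From Vwf -11.9 downwards these neighbours differ by no more than their SDs, while Vwf +19.9 lies above the next by more than either SD. The peaks at a RefSeq start, Pf4 -0.2 (5.56 ± 0.87), Itga2b -0.3 (4.54 ± 0.19) and Gp9 +0.0 (3.59 ± 0.54), stood lower. In the first phase the order began with Itga2b +2.6 (7.80 ± 0.28), Vwf +19.9 (7.27 ± 0.16), Itga2b +13.7 (7.04 ± 0.24), Gp9 +12.9 (7.00 ± 0.40) and Gp9 +11.3 (6.96 ± 0.19). There Itga2b +2.6 lies above the next peak by more than either SD, and the neighbours after that do not differ beyond their SDs. The first-phase SDs take A1 and A2 as separate libraries although these hardly differ beyond sampling noise, so they may be too small.

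Other genes of the platelet programme were read at their start peaks, which lie within 1000 bases of an annotated start. Of 18 genes for platelet surface receptors and adhesion, 14 had a start peak, of which 2 were higher in the rest phase, 8 lower and 4 did not pass, with a median fold of -0.81. Over the 14416 genes with a start peak, 10.1% were higher and 36.6% lower, with a median of -0.42. With total reads in peaks these were 12.1% and 38.9%, with a median of -0.45, and with the authors' scaling 7.02% and 3.26%, with a median of 0.012, against which the counts of each list under these scalings are to be read. The thromboxane receptor gene Tbxa2r fell most (-3.21, SE 0.40, limma adjusted p = 2.99e-05). Itgb3, the beta chain that pairs with the product of Itga2b, fell by 1.82 on the log2 scale (SE 0.26, adjusted p = 0.000102), and the collagen receptor chain Itga2 fell by 1.34. Cd36, a scavenger receptor that macrophages also carry, rose by 1.41 (SE 0.42, limma adjusted p = 0.0169), and Clec1b, the podoplanin receptor CLEC-2, by 1.22 (SE 0.30, adjusted p = 0.00521). Under total reads in peaks 2 start peaks of this list were higher and 4 lower, and under the authors' scaling 2 and 1, with medians of -0.39 and 0.08.

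Of 17 genes of platelet granules, cytoskeleton and signalling, 13 had a start peak, with 1 higher, 6 lower and 6 not passing and a median of -0.90. The protease inhibitor gene Serpine2 (-1.92), the coagulation factor genes F5 (-1.91) and F13a1 (-1.64) fell most, with limma adjusted p = 0.000277, 0.000154 and 0.00252. Tbxas1, the thromboxane synthase gene that macrophages also use, rose by 2.52 (SE 0.32, adjusted p = 3.81e-05). With the authors' scaling 1 was higher and 0 lower in this list, and with total reads in peaks 2 and 7.

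Of 16 transcription regulators of megakaryocytes, 14 had a start peak, with 1 higher, 6 lower and 7 not passing and a median of -0.40. The ETS factor gene Erg fell most (-3.06, SE 0.37, limma adjusted p = 2.39e-05), from a mean level of 5.94 to one of 2.95. Gfi1b (-1.10) and Gata2 (-0.96), both regulators of early megakaryocyte and erythroid cells, passed at adjusted p = 0.0207 and 0.0205. Meis1, a homeobox gene of stem cells and megakaryocytes, was higher (0.86, SE 0.26, adjusted p = 0.0175). Under the other scalings the list had 1 higher and 4 lower with total reads in peaks, and 0 and 1 with the authors' scaling.

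Markers of other marrow cells moved between the same phases, and their part in the results at the 5 genes was not tested. Start peaks were lower in the rest phase at 7 of 7 erythroid markers (median fold -3.52), 9 of 9 neutrophil markers (-2.86) and 6 of 6 B cell markers (-3.02) that had one, out of 11, 10 and 6 listed. Under the authors' scaling 6, 6 and 4 of these were lower and 0 were higher in each list. Of 12 macrophage markers 6 were higher and 2 lower (median 0.76). The levels behind these were wide apart, with list medians per library of 6.43 to 7.87 in the first and 2.70 to 4.28 in the rest phase for erythroid, 7.22 to 8.09 and 3.38 to 4.67 for neutrophil, and 5.92 to 7.81 and 3.28 to 4.47 for B cell markers. Among the marker genes named by rule, losses were found at S100a9 (-6.41), a neutrophil alarmin gene, at the neutrophil granule gene Ngp (-4.67), at the globin gene Hbb-bt (-4.63), at the red cell anion exchanger gene Slc4a1 (-4.63) and at the B cell surface gene Ms4a1 (-3.85). Complement genes of macrophages rose, C1qb by 2.79 (limma adjusted p = 0.000108) and C1qa by 1.81 (adjusted p = 9.55e-05). The 2 macrophage markers that passed as lower were Itgam (-0.88, limma adjusted p = 0.00695) and Spi1 (-0.70, adjusted p = 0.0449). With total reads in peaks 8 macrophage markers were higher and 1 lower, and with the authors' scaling 5 and 0.

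Endothelial cells also make von Willebrand factor, and their markers did not show a common direction. Of 7 endothelial genes with a start peak (11 listed), 1 was higher (Esam, 1.06), 1 lower (Egfl7, -1.53) and 5 did not pass, with a median of -0.09 that became 0.12 and 0.56 under the other scalings. List medians per library were 4.97 to 5.41 in the first and 4.86 to 5.92 in the rest phase. Of 8 stem and progenitor genes 2 were higher (Procr, 1.49, and Mecom, 1.22) and 2 lower (Myb, -3.06, and Flt3, -1.32). Of 3 T and NK cell genes with a start peak (8 listed) 1 was higher (Klrb1c, 1.99) and 1 lower (Tcf7, -1.86). Start peaks were taken only from the peaks tested, so reads in each group of each phase were a condition of entry.

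Within the first phase, no difference between group A and group B passed a test at the 5 genes. The authors' deposited table called 0 of the 46 peaks and 0% of all peaks at an adjusted p under 0.05, with 0 of the 46 and 812 of all peaks at an unadjusted p under 0.05. limma with quantile scaling also called 0, with 1 of the 46 and 5193 of all peaks at an unadjusted p under 0.05. The log2 group means at the Gp9 start were 5.23 in A and 4.84 in B in the authors' deposited table, and those at Itga2b -0.3 were 5.52 and 5.66. For Pf4 they were 3.68 and 3.90 in the authors' deposited table, and for Vwf +132.7 they were 4.12 and 4.23. limma gave standard errors of 0.33 to 0.63 for the differences at the 46 peaks. This fit takes A1 and A2 as 2 libraries although they hardly differ beyond sampling noise, so these errors may be too small.

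Within the rest phase, the authors' deposited table called 14 of the 46 peaks, 13 higher in group A and 1 higher in group B. The background was 39.8% of all peaks called, 39.7% higher in A and 0.0929% higher in B. The median shrunken log2 fold was 0.86 over the 46 and 1.04 over all peaks. The calls higher in A were at Gp9 (3 peaks), Pf4 (1), Itga2b (1) and Vwf (8).

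At Pf4 the log2 group means of the rest phase were 7.16 in A and 4.91 in B, and the authors' deposited table gave a shrunken fold of 1.76 (adjusted p = 0.00779). On the quantile scale A1 and A2 had levels of 5.97 and 6.19, while B1 had 4.28 and B2 5.81. The groups did not overlap, but B1 lay far from B2. The limma fold on this scale was 1.10 (SE 0.45, adjusted p = 0.142, n = 2 and 2), and it was 0.29 without B1 and 1.93 without B2. It passed with total reads in peaks (1.19, adjusted p = 0.00157) and with the authors' scaling (2.56, adjusted p = 0.000634). Further peaks higher in A in the authors' deposited table were Vwf +92.1 (1.70, adjusted p = 0.00674), Vwf -11.9 (1.34, adjusted p = 0.0286), Vwf +132.7 (1.31, adjusted p = 0.0419), Gp9 +11.3 (1.19, adjusted p = 0.0406), Itga2b +13.7 (1.19, adjusted p = 0.0407) and Gp9 +0.7 (1.14, adjusted p = 0.0406). With limma and quantile scaling none of the 13 passed, and Gp9 +0.7 and Itga2b +13.7 had folds below 0 (-0.04 and -0.29).

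The calls in the rest phase that quantile scaling gave were 3, all at Vwf and all higher in group B, where limma called 11.8% of all peaks, 6.37% higher in A and 5.47% higher in B. These 3 were described after their values were seen. Each rests on 2 libraries per group, so whether the calls hold with 1 library left out cannot be judged. Vwf +27.1 (chr6:125579836-125580235, intron) had levels of 4.11 and 3.43 (A1, A2) against 6.70 and 6.62 (B1, B2), with a fold of -3.03 (SE 0.30, limma adjusted p = 0.00163). It is also the 1 peak higher in B in the authors' deposited table (-1.38, adjusted p = 0.0343). Vwf -19.5, with the levels given above, had a fold of -2.48 (SE 0.22, limma adjusted p = 0.00121). Vwf -20.4 had 6.85 and 6.44 (A1, A2) against 8.17 and 8.06 (B1, B2), with a fold of -1.30 (SE 0.17, adjusted p = 0.00353). Neither of these passed in the authors' deposited table, where their folds were -0.77 (Vwf -19.5) and 0.15 (Vwf -20.4). Depth in peaks moved with the groups in this phase. Libraries A1 and A2 held 18617444 and 16002834 reads in peaks, against 5459236 and 8775958 for B1 and B2. The part of this difference in the results was not tested.

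**Figure D4:**
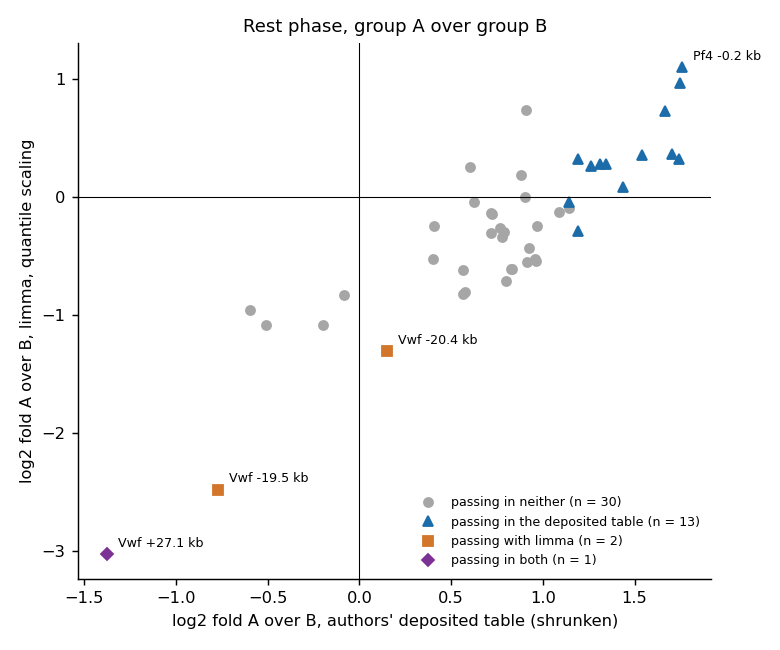
Log2 fold of group A over group B in the rest phase at the 46 peaks, from the authors' deposited table (horizontal, shrunken) and from limma with quantile scaling (vertical). The 13 peaks called higher in A in the deposited table lie on the right, and the 3 Vwf peaks called higher in B with limma lie at the bottom.

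Within the second phase, the authors' deposited table called 11 of the 46 peaks, all higher in A, against 26.7% of all peaks called, 26.7% higher in A and 0.00429% in B. They were 8 peaks of Vwf, 2 of Itga2b and that of Pf4, and the median shrunken fold was 0.81 against 0.86 over all peaks. The largest named was Vwf +50.4, for which the authors' deposited table gave group means of 7.44 and 5.27 and a fold of 1.67 (adjusted p = 0.0242). Its quantile-scaled levels were 6.90 and 6.13 (A1, A2) against 6.97 and 5.50 (B1, B2), which overlap. Itga2b +2.6 (1.43, adjusted p = 0.027), Itga2b +13.7 (1.34, adjusted p = 0.0296), Pf4 -0.2 (1.30, adjusted p = 0.0395) and Vwf -11.9 (1.18, adjusted p = 0.0446) were the other named peaks called in the authors' deposited table. limma with quantile scaling called 0 of the 46 peaks and 0% of all peaks, with 1 of the 46 and 1056 of all peaks at an unadjusted p under 0.05.

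Stimulation with IFN-γ and LPS brought no call at the 5 genes. limma called 0 of the 46 peaks and 0% of all peaks in the second against the rest phase, with 2 of the 46 and 16037 of all peaks at an unadjusted p under 0.05. The rest-phase libraries serve in this comparison and in that with the first phase. Levels at the Gp9 start were 3.18, 4.03, 2.91 and 3.77 in the second phase, among those of the rest phase (fold -0.11, SE 0.39, limma adjusted p = 0.921). Itga2b -0.3 had 4.18, 5.26, 3.60 and 4.78 (-0.09, SE 0.36, adjusted p = 0.934), and Pf4 -0.2 had 5.91, 4.97, 5.69 and 4.98 (-0.18, SE 0.43, adjusted p = 0.881). Vwf +132.7 stood at 7.58, 7.33, 7.28 and 7.98 (-0.02, SE 0.19, adjusted p = 0.973), Vwf -11.9 at 8.08, 7.97, 8.10 and 7.93 (0.12, SE 0.16, adjusted p = 0.759), and Vwf +19.9 at 8.81, 9.20, 8.70 and 9.25 (0.17, SE 0.15, adjusted p = 0.628). The libraries of the phases did not overlap at 2 peaks higher in the second phase and 2 lower, against 2.26% and 3.64% of all peaks.

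The 2 members at an unadjusted p under 0.05 were Vwf +28.5, described after its values were seen, and Vwf +50.4. Vwf +28.5 (chr6:125581229-125581628, intron) went from levels of 4.25, 4.20, 3.05 and 4.11 to 4.65, 7.00, 4.80 and 7.38, with a fold of 2.08 (SE 0.59, limma adjusted p = 0.42). Second-phase libraries A2 and B2 lay more than 2 log2 units above A1 and B1, so the spread within the phase was as wide as the fold. The same libraries stood highest of their phase at Vwf -26.7 (6.13 and 5.50, against 4.45 and 3.38) and at Vwf +91.4 (5.60 and 6.16, against 4.12 and 3.38), and lowest at Vwf +50.4 (6.13 and 5.50, against 6.90 and 6.97). Vwf +50.4 had a fold of -0.76 (SE 0.31, limma adjusted p = 0.42) against the rest phase. The variance within the library pairs of the second phase was 15.7 (A) and 7.85 (B) times that of sampling noise. This was taken over peaks with at least 20 reads in the pair.

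**Figure D5:**
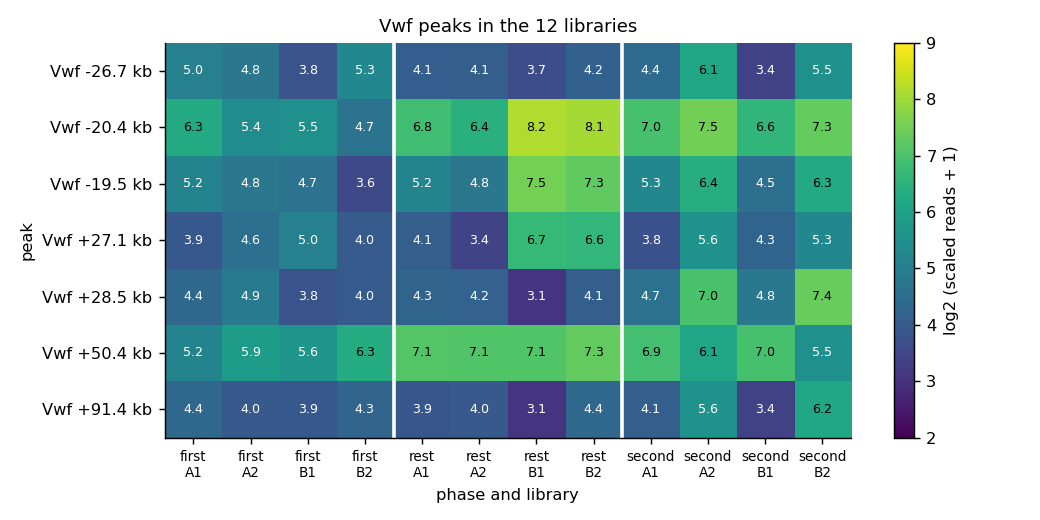
Level, log2 (quantile-scaled reads + 1), of 7 Vwf peaks in each of the 12 libraries, with colour and printed value. At Vwf -19.5, -20.4 and +27.1 the rest-phase libraries B1 and B2 stand above A1 and A2, and at Vwf +28.5 and +91.4 the second-phase libraries A2 and B2 stand above A1 and B1.

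Genes whose start peaks followed those of the members most closely over the 12 libraries were looked for among 13037 genes, as a description. For Itga2b +2.6, the most accessible start peak of the 5 genes, they included Ndrg4 (Pearson r = 0.898), Cryl1 (0.862), Gtf3c6 (0.859) and Pdk2 (0.856). A mean was also taken over the start peaks Gp9 +0.0, Pf4 -0.2, Itga2b +2.6 and Vwf +132.7. Of these, Itga2b +2.6 lies at the start of a shorter transcript, and Vwf +132.7 at that of a short transcript near the 3′ end. The genes closest to this mean were Drp2 (0.884), Sulf2 (0.873), Mmp1a (0.860), Zfp334 (0.859) and Fbxw4 (0.856). Libraries of a phase share their culture stage and all 12 share the scaling, so these values do not rest on independent samples. The Itga2b peak varied by less than 1 log2 unit over all 12 libraries.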

How the data were processed

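The authors deposited 1 table per phase over the same peaks, with the log2 mean of normalised reads of either group, a shrunken log2 fold change, and a p-value with its adjusted p-value for each peak. Per the submitters' processing notes the build is mm10 and the tools named include Bowtie2 2.5.4, Picard 3.2.0, MACS2, DiffBind 3.14.0 and DESeq2. What each tool did is not stated there. All deposited folds were turned to A over B, which changed the sign of those of the first and second phases. The 38000 second-phase peaks with an adjusted p of 1 count as not passing.

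Each group mean above the floor was solved for exactly 1 pair of whole read numbers (Python 3.11.15; largest relative miss 3.56e-10 to 3.47e-09 by group). This gave reads in 12 libraries for 139557 peaks, while 442 peaks, listed at 0 in some group, did not enter the tests on reads. Library numbers follow the worth of a read, not the labels' replicates. Within phases, calls are those of the authors' deposited table at an adjusted p under 0.05. Between phases, limma 3.58.1 (R 4.3.3; empirical Bayes with a trend) was run on log2 (quantile-scaled reads + 1), groups A and B pooled, with Benjamini-Hochberg adjustment. Alternatives were total reads in peaks, the authors' scaling, a pseudocount of 5, a mean of at least 10 scaled reads, a threshold of 0.01, a group term, the first-phase pair as 2 libraries, and leaving out each library. The recovery and the tests were checked on simulated data. Depth in peaks limits precision, and counting error grows where a peak holds few reads.

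The peaks, gene lists, motifs and tests were chosen with earlier results of these data known. Named peaks are those nearest an annotated start, the most accessible peak of a gene and up to 5 passing a test by smallest adjusted p. For other lists up to 3 start peaks per direction that passed are named, and other peaks described are said to be chosen after their values were seen. A gene that the rule on similar patterns would name is not reported here.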

Additional observations from a re-analysis of the deposited data

Results flagged for a closer look

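Among 42 sets of 4 libraries (the rest and the second phase at 21 peaks, 17 named by rule and 4 added after their values were seen), 3 had a library far from the other 3 relative to the range of the set. Chance alone flags about 1 in 20 such sets when they are independent. The sets here share libraries and pool groups A and B, so this rate need not hold. Of the flagged peaks, Vwf +28.5 was added after its values were seen. At Vwf +12.2, the peak with the largest loss at Vwf, second-phase library B1 stood at a level of 4.10, against 2.53 to 2.59 in the other 3. At Vwf +28.5, rest-phase library B1 stood at 3.05, against 4.11 to 4.25. At Vwf +50.4, rest-phase library B2 stood at 7.33, against 7.10 to 7.12. The peaks held 13, 7 and 164 reads in these libraries.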

How the results depend on the processing

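Of the comparisons between phases, the count of 27 member peaks in the rest against the first phase stayed within 18 to 29 under all alternatives run, including 21 to 27 with any 1 library left out, and the count of 0 in the second against the rest phase stayed at 0. The first phase stayed at 0. The 14 calls of the rest phase became 5 with an adjusted p under 0.01. limma gave 3 with quantile scaling, 6 (3 higher in A, 3 in B) with total reads in peaks and 18 with the authors' scaling. Over all 139557 peaks limma called 16523, 29911 and 77236 in this phase, in the same order of scaling. The 11 calls of the second phase became 0 with an adjusted p under 0.01. They also became 0 with limma under each scaling, where limma called 0 of all peaks too. Within a phase, leaving out 1 library leaves a group with a single library, which is assumed to vary like the other group. No calls are given for that setting.

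Directions turned as follows; the cause was not tested. In the rest against the first phase, Itga2b +2.6 became 0.029 (total reads) and 0.50 (the authors' scaling), with -0.26 to 0.081 when 1 library was left out. Vwf +28.5 became 0.018 and 0.47, with -0.44 to 0.018. Gp1bb +4.5 became 0.36 and 0.83. For A over B in the rest phase, limma gave Gp9 +0.7 as -0.041 (quantile) and -0.063 (total reads), with -0.47 to 0.45 when 1 library was left out, and Itga2b +13.7 as -0.29 (quantile), with -0.36 to -0.21. In the second phase leaving out 1 library gave -0.34 to 0.56 at Pf4 -0.2, -0.072 to 0.44 at Itga2b +2.6, -0.057 to 0.073 at Vwf -11.9 and -0.42 to 1.11 at Vwf +50.4.

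No paired analysis was possible because the recovered libraries carry no replicate number. Low reads limit what can be shown at Pf4, Gp9 and the weaker Vwf peaks, where first-phase libraries held as few as 2 to 5 reads.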
